A study of Mus musculus with 2 samples.

Results

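Integrin subunits were compared between 2 kinds of mouse epiblast stem cells. The set holds 10 genes of 34650 gene names on the array: the alpha chains Itga1, Itga3, Itga5, Itga6, Itga8 and Itgav and the beta chains Itgb1, Itgb3, Itgb4 and Itgb5. A probe belonged to the set when it was no control probe and the scanner files gave it the name of 1 of these genes, which took in 15 probes with 1 spot each. Probes were taken by name, and the 10 genes were picked with earlier results of these data known, so counts over them are descriptions. The starting cells of both were ES cells (embryonic stem cells) of the mouse line E14Tg2A, strain 129/Ola, grown on gelatin with serum and LIF. EpiSC were made by exposing these ES cells to Activin A at 20 ng/mL and FGF2 at 12 ng/mL in a chemically defined medium without serum. ELA-EpiSC received the same factors in the same medium, but started from Epiblast-Like Aggregates (ELA), floating clusters that ES cells form once serum and LIF are withdrawn. The design asks how alike the cells reached by these 2 routes are. Each group was a single array hybridized with RNA pooled from 3 sets of experiments, so no replicate spread between cultures could be measured and no test between the groups was possible. All values describe these 2 pools of 1 cell line. The source label of the EpiSC sample names an Argonaute IP where its title, description and molecule field describe total RNA. The source labels of both samples also carry the mark 0DIV, which the titles and descriptions do not, and these conflicts were not settled here.

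Integrins are adhesion receptors made of 1 alpha and 1 beta chain that cross the plasma membrane as a pair. The outer parts bind matrix proteins, and the tail of the beta chain binds talin and kindlin, which link it to actin and switch the receptor to its binding state. Itgb1 pairs with many alpha chains, and Itgav with several beta chains. In the early embryo, binding of laminin and fibronectin by Itgb1 integrins supports the epiblast epithelium on its basement membrane.

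Levels are given as normalized intensity on the log2 scale, and a difference is the level in ELA-EpiSC minus the level in EpiSC. Levels of different probes depend on the probe and were not set against each other. Each gene is represented by its brightest probe, and it was counted as different when its mean level was at least 7.5 and its difference at least 1, which is 2-fold. By this rule 4 of the 9 integrin subunits with a sufficient level were higher in ELA-EpiSC, namely Itgb3, Itga3, Itga8 and Itgb4, against 4.54% of the 16649 genes counted the same way. None was higher in EpiSC, where the share over all genes was 4.46%. The median difference was 0.52 over these 9 subunits and 0.51 over all 10, beside 0.00 over all genes counted. A technical measure of error came from 312 probes printed 10 times each and detected on both arrays, over which the spot-to-spot SD of a difference was 0.10. This SD leaves out labelling and culture. The error that the scanner software attached to the difference of each integrin probe was larger, from 0.20 to 0.22, and 0.41 at the dim probe of Itgb3. The differences of Itga6 and Itgb5, and that of Itga1, at their brightest probes were smaller than this error.

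**Figure D1:**
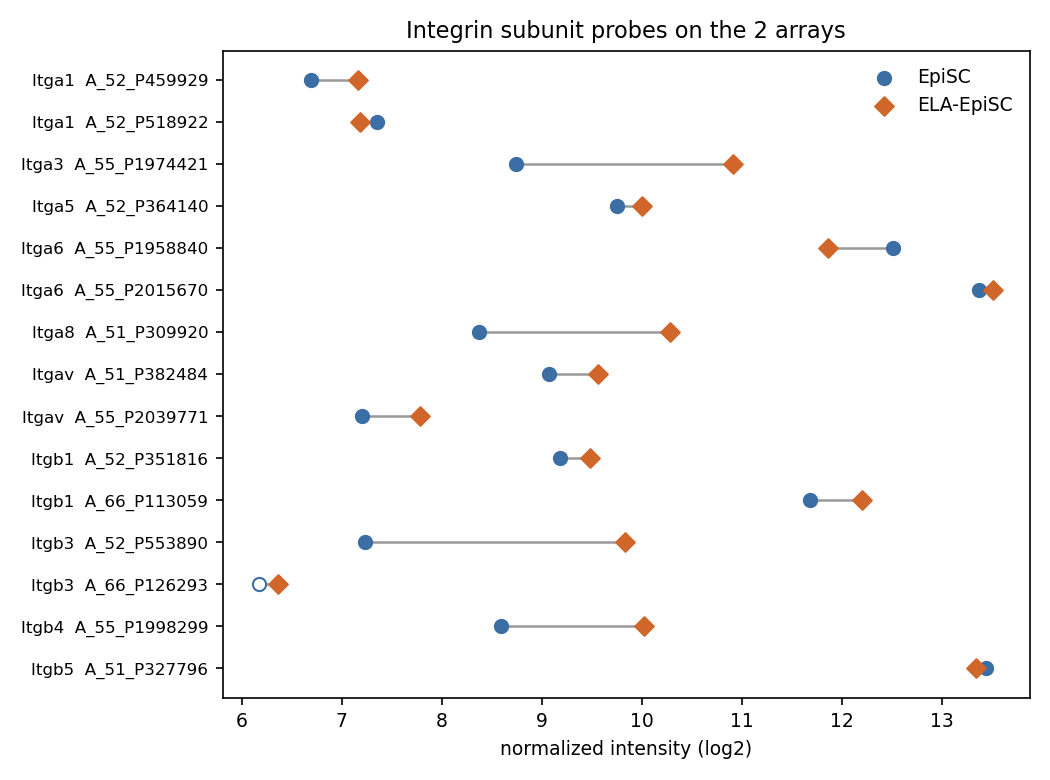
Normalized intensity (log2) of each of the 15 integrin probes on the EpiSC array (circles) and the ELA-EpiSC array (diamonds), with 1 spot per probe and array; an open symbol was not well above background. The long lines belong to Itga3, Itga8, Itgb4 and 1 of the Itgb3 probes, all with the ELA-EpiSC array on the right.

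The laminin-binding chains differed from each other in their response. Itga3, which with Itgb1 forms a receptor for the laminins of epithelial basement membranes, had a spot brightness of 362 in EpiSC and 2102 in ELA-EpiSC before any correction. After normalization its level was 8.74 in EpiSC and 10.91 in ELA-EpiSC and so differed by 2.17. ELA-EpiSC were thus 4.50-fold brighter at the Itga3 probe, by 21.3 spot SDs, and 115 of the genes counted had a larger difference. This probe lies at chr11:94906334-94906393 (mm9, minus strand), at base 4255 of its transcript.

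Itga6, the other main laminin-binding alpha chain, is abundant on pluripotent cells and can pair with Itgb1 or Itgb4. Its brighter probe, at chr2:71694756-71694815, read 13.37 in EpiSC and 13.51 in ELA-EpiSC and so differed by 0.14. The other probe, at chr2:71690633-71690692 and assigned to the shorter transcript ENSMUST00000139760, read 12.51 and 11.86, a difference of -0.65. The probes of Itga6 thus gave opposite directions, and the mean of both was -0.25. Neither reached 1.

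Itgb4 is the beta chain of hemidesmosomes, pairs with Itga6 alone and has a long tail that binds plectin. Its only probe had a brightness of 319 in EpiSC and 1122 in ELA-EpiSC, and a level of 8.59 and 10.02. The difference of 1.43 (2.70-fold) put Itgb4 higher in ELA-EpiSC, whereas the brighter probe of its partner Itga6 differed by 0.14. The Itgb4 probe lies at chr11:115869666-115869725 and holds the polyadenylation hexamer AATAAA from its base 38.

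The receptors for the Arg-Gly-Asp (RGD) motif of matrix proteins were led by Itgb3. This chain pairs with Itgav, and with Itga2b on platelets, and binds vitronectin, fibronectin and osteopontin. The probe at chr11:104531672-104531731 (base 5665 of its transcript) had a brightness of 111 in EpiSC and 976 in ELA-EpiSC over a local background of 27 and 28. Its level of 7.23 in EpiSC and 9.83 in ELA-EpiSC gave the largest difference among the 10 subunits as reported here, 2.60 or 6.05-fold, which only 56 of the genes counted exceeded. The other Itgb3 probe, at chr11:104528625-104528684 (base 2618), had a brightness of 39.7 and 51.8 and was not well above background in EpiSC. For that probe the signal in ELA-EpiSC (6.36) was at least 1.14-fold that in EpiSC (6.18) by the rule for dim probes, but the difference of 0.18 was smaller than its scanner error and turned to -0.13 with 75th percentile scaling. The probe thus gave no settled direction, and the mean of both probes was 1.39 with a mean level under 7.5. The difference of Itgb3 therefore rests on 1 spot per array at the distal probe.

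Itga8 pairs with Itgb1, binds nephronectin and other RGD proteins, and is known for its role in kidney development. Its probe, at chr2:12028462-12028521, had a brightness of 274 in EpiSC and 1354 in ELA-EpiSC. The level was 8.38 and 10.28, a difference of 1.91 (3.75-fold, 18.7 spot SDs), with 175 of the genes counted above it. Its ligand nephronectin (Npnt) read 6.49 in EpiSC and 6.46 in ELA-EpiSC, below the level at which genes were counted.

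Other chains of RGD receptors differed less. Itgav, the alpha chain of the vitronectin receptors, read 9.07 in EpiSC and 9.56 in ELA-EpiSC at 1 probe and 7.21 and 7.79 at the other, differences of 0.50 and 0.58. Both Itgav probes were thus higher in ELA-EpiSC, the brighter by 4.86 spot SDs, without reaching 1. Itga5, which with Itgb1 forms the classical fibronectin receptor, read 9.75 in EpiSC and 10.01 in ELA-EpiSC and so differed by 0.25. Itgb5, a further partner of Itgav, read 13.44 and 13.34, and its difference of -0.10 was smaller than 1 spot SD. The sign for Itgb5 was positive with median scaling or with spike-in probes set equal.

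Itgb1 is the beta chain common to the receptors for laminin, fibronectin and collagen, and 1 of its probes read the part of the coding sequence from which it connects to the cell interior. The probe at chr8:131250081-131255976 covers 60 bases of transcript, starting at base 2631, over 5896 bases of genome, so it spans an intron. The other, at chr8:131246349-131246408, starts at base 1840. Both are shown 5′ to 3′ from the array files, with capitals on the codons for Asn-Pro-x-Tyr, the motifs of beta tails that bind talin and kindlin, as found by a search for these codons in the open reading frame.
Itgb1 tail probe: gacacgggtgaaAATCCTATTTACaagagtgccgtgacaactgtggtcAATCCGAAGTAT
Itgb1 upstream probe: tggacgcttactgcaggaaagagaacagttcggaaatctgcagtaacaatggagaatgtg
The tail probe holds the motif at bases 13 to 24 and again at bases 49 to 60, and the upstream probe does not hold it. The tail probe read 11.68 in EpiSC and 12.20 in ELA-EpiSC and so differed by 0.52. The upstream probe read 9.18 and 9.48, a difference of 0.30. Itgb1 was therefore higher in ELA-EpiSC at both probes, by less than 1 on the log2 scale.

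Itga1, the alpha chain of a collagen receptor with Itgb1, was dim. Its probe at chr13:115821387-115825525 read 7.36 in EpiSC and 7.18 in ELA-EpiSC, and the probe at chr13:115756765-115758419 read 6.69 and 7.16. The differences of -0.17 and 0.47 had opposite signs, and the mean level of 7.27 at the brighter probe left Itga1 out of the genes counted.

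**Figure D2:**
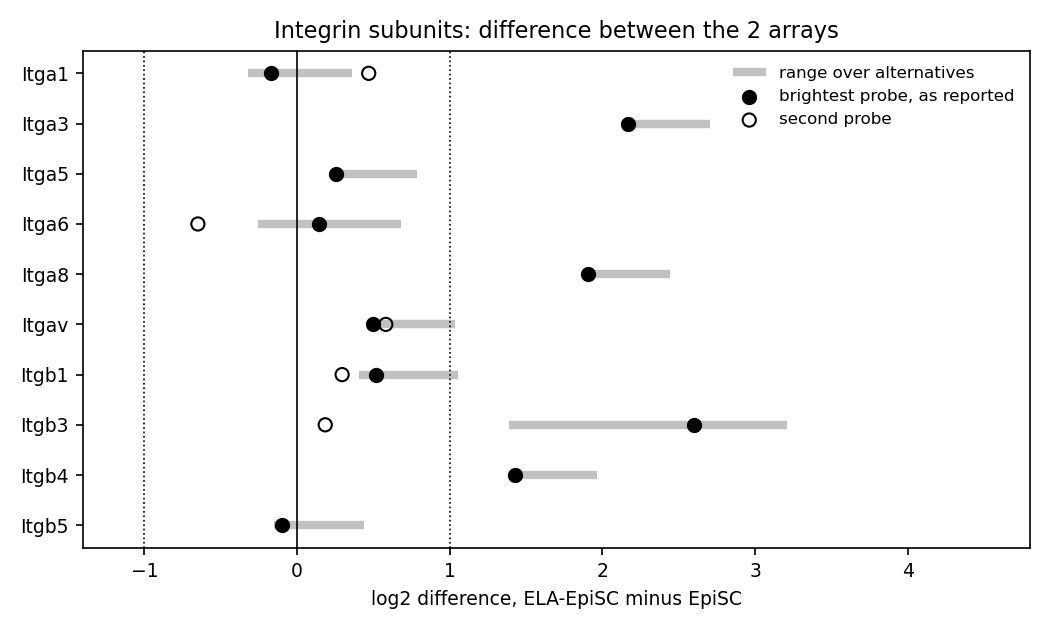
Log2 difference, ELA-EpiSC minus EpiSC, for each subunit at its brightest probe (filled) and, where there was one, at its second probe (open), with grey bars from the lowest to the highest value over 14 other ways of processing and dotted lines at -1 and 1. Itga3, Itga8, Itgb3 and Itgb4 stay right of 1 throughout, while Itga1, Itga6 and Itgb5 cross 0 under at least 1 alternative; the open circle of Itgb3 stands far from its filled one.

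Set side by side as the heterodimers they can form, some chains differed from their partner and others lay close to it. Itga3 exceeded its partner Itgb1 by 1.65 in the size of the difference, and Itga8 exceeded Itgb1 by 1.39. Against Itgb1, the gap at the brightest probes was -0.27 for Itga5, -0.37 for Itga6 and -0.69 for the dim Itga1, all smaller in size. Against its other partner Itgb4, the gap of Itga6 was -1.29. The second probes of Itga6 (-0.65) and Itga1 (0.47) had the opposite sign to the brightest ones, so the gaps of these chains depend on the probe. Among the Itgav receptors, the difference of Itgb3 was 2.60 and that of Itgb5 was -0.10, with 0.50 for Itgav itself. The chains common to several receptors, Itgb1 and Itgav, thus stayed under 1, as did Itga5 and Itga6. In RNA of whole cultures, a change in every cell and a change in the share of cells that express a gene cannot be told apart.

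**Figure D3:**
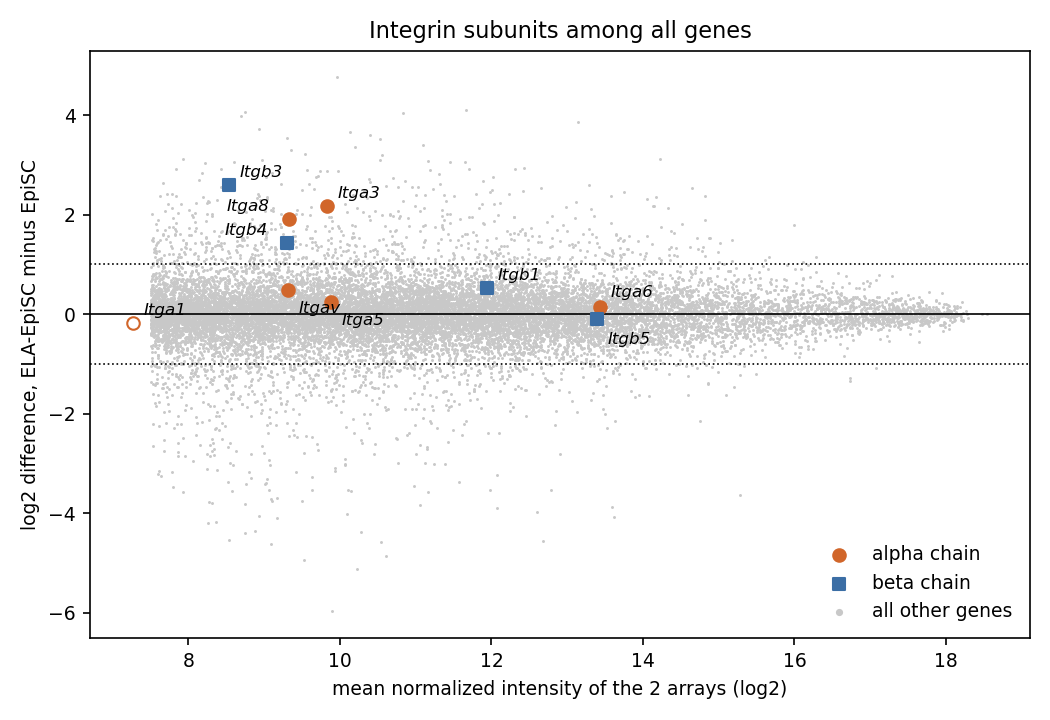
Log2 difference, ELA-EpiSC minus EpiSC, against the mean normalized intensity of the 2 arrays (log2) for the 16649 genes counted (grey) and the 10 subunits, with alpha chains as circles and beta chains as squares; Itga1 (open) was too dim to be counted. Itgb3, Itga3, Itga8 and Itgb4 lie above the dotted line at 1, and no subunit lies below the line at -1.

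Promoter sequence was available for 7 of the 10 subunits, as 8 starts, in a RefSeq table of build GRCm38.p6. The 250 bases upstream of the start are shown for the pair of subunits past 1 that the table holds, since both were higher in ELA-EpiSC. Capitals mark the GC box, GGGCGG on either strand.
Itga3 promoter, chr11:95076715-95076964, minus strand: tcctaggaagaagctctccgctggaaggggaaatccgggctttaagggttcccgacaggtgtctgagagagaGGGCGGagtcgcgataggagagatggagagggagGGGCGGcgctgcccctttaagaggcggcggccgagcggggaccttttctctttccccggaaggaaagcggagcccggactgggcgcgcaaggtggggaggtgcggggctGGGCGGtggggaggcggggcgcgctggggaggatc
Itga8 promoter, chr2:12301945-12302194, minus strand: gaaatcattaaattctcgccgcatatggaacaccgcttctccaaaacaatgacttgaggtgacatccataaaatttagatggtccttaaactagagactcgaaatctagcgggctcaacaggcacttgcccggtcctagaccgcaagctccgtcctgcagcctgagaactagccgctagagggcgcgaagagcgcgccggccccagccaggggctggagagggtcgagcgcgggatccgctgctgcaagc
The Itga3 promoter shown holds 3 GC boxes and has 67.6% G and C, and the Itga8 promoter holds 0 and has 56.4%. The table also lists a downstream start of Itga3, whose promoter at chr11:95069199-95069448 holds 1 GC box and has 50.8% G and C. A GC box was found in 5 of the 8 promoters of subunits and in 32.7% of the 32851 promoters in the table. The AP-1 motif TGANTCA was found in 0 of the 8 (6.7% of all), the TEAD motif GGAATG in 1, that of Itgb1 (12.6% of all), and the E-box CACCTG in 2, the promoters of Itga3 and Itgb5 (17.2% of all), each searched on both strands. No match of 1 motif overlapped a match of another in these promoters, and a match describes letters only.

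The other integrin subunits on the array stayed under 1 as reported here. Of 16 such genes, 11 were detected on at least 1 array and 4 had a sufficient level, of which 0 passed 1 and all 4 were higher in ELA-EpiSC. Itga7, a laminin-binding chain of muscle, read 7.46 in EpiSC and 8.38 in ELA-EpiSC and so differed by 0.93, a value that passed 1 with median scaling, with the processed signal, in the deposited values and with spike-in probes set equal. Itgb7 differed by 0.63, Itga9 by 0.40 and Itgam by 0.37. With spike-in probes set equal, 2 of 5 such genes passed 1, Itga7 and Itgb7, beside 14.8% of all genes. The Itgam value comes from a probe that holds a CA repeat of 20 bases, and the other Itgam probes read -0.39 and -0.11. The platelet chain Itga2b was not well above background in EpiSC, and Itga2, Itgad, Itgae, Itgax and Itgb6 were not well above background on either array.

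Genes that carry the integrin signal inward were described by lists drawn up for this purpose. Among activators and cytoskeletal linkers, 7 of 20 genes with a sufficient level passed 1 upward and 1 passed it downward, with a median difference of 0.84. Over all genes counted, 4.54% passed 1 upward and 4.46% downward, and these shares stand beside each list below. The count upward was 5 of 20 with the processed signal minus its 75th percentile, beside 4.65% of all genes. With spike-in probes set equal it was 15 of 21, beside 14.8% of all genes. Parva, a partner of Ilk that binds actin, differed by 2.28, and Tgfb1i1 (Hic-5), a paxillin relative, by 2.01 at its brighter probe and 0.38 at the other. Zyx differed by 1.54, Vcl by 1.44 (0.87 at its other probe), Tln1 by 1.24 and Flna by 1.04. Tln1 was 0.99 with the processed signal, and Flna was under 1 with 4 of 6 other scalings. Tns2, named Tenc1 on the array, had a level of 8.26 in EpiSC and 9.77 in ELA-EpiSC. Parvb, the close relative of Parva, was past 1 downward at -1.19, with 8.63 in EpiSC and 7.44 in ELA-EpiSC. Its other probe read -0.21, and its value was -0.65 with spike-in probes set equal.

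The direct activators differed among themselves. Talin (Tln1) read 13.42 in EpiSC and 14.66 in ELA-EpiSC at its brighter probe, while its other probe differed by 0.33. Its relative Tln2 was on the other side, with -0.49 and -0.20 at its probes, and 0.04 at the brighter one with spike-in probes set equal. The kindlin Fermt2 differed by 0.88 (0.38 at its other probe), Fermt1 by 0.59 at a dim probe and Ilk by 0.66. Paxillin (Pxn), the scaffold of nascent adhesions, was dim at 6.68 and 6.95.

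Adhesion signalling held no gene past 1 among 18, with a median of 0.38 and 15 of them higher in ELA-EpiSC. With median scaling 1 of 18 passed, Bcar1 at 1.07, beside 6.69% of all genes. With spike-in probes set equal 6 of 18 did, beside 14.8% of all genes. The focal adhesion kinase Ptk2 differed by 0.69 at its brightest probe and by as little as 0.05 at another. Inhibitors, trafficking factors and membrane partners of integrins had a median of 0.05 over 17 genes, and that median turned to -0.02 with 75th percentile scaling. Slc3a2 (CD98 heavy chain), which binds beta tails, was the only one of them past 1, at 1.10, and it was 0.79 with 75th percentile scaling.

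**Figure D4:**
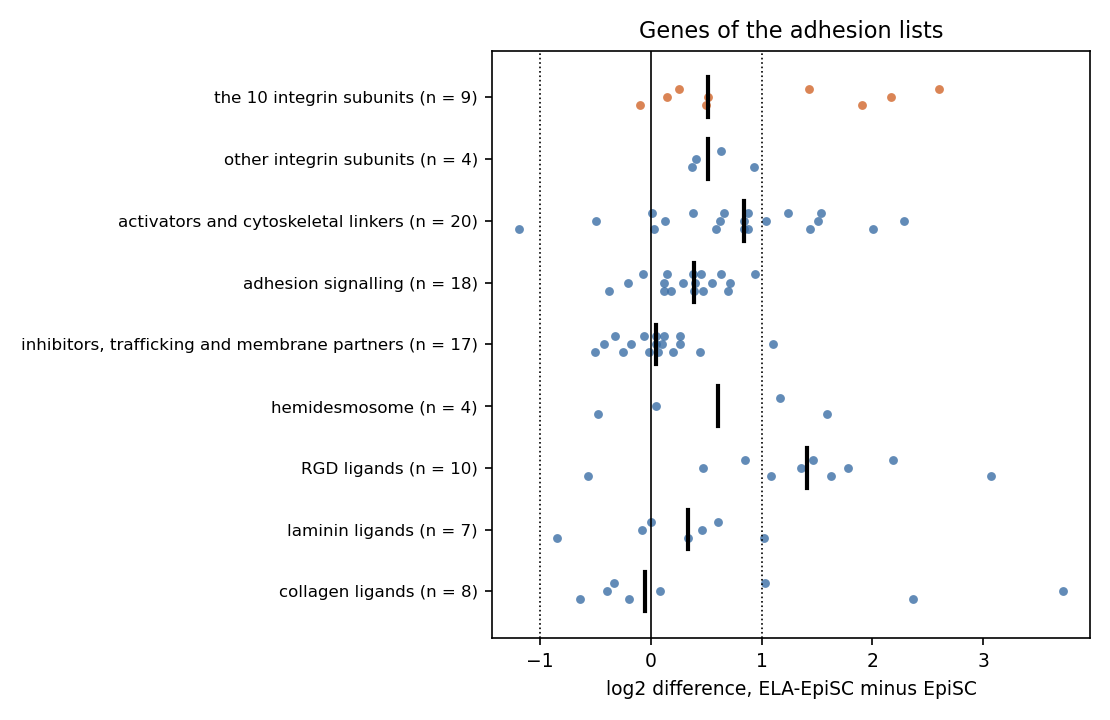
Log2 difference, ELA-EpiSC minus EpiSC, for genes with a mean level of at least 7.5 in each list (points, spread vertically for visibility) with the median of the list (black bar) and dotted lines at -1 and 1. The medians of the list called RGD ligands (ligands of RGD-binding integrins, 1.41) and of activators and cytoskeletal linkers (0.84) lie farthest to the right. That of collagen ligands lies near 0 (-0.06).

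The ligands of the integrins were measured on the same arrays. The list called RGD ligands held ligands of RGD-binding integrins and was not limited to proteins that carry the motif. In it, 7 of 10 genes with a sufficient level passed 1 and 0 passed -1, with a median of 1.41. The count upward was 4 of 8 with the processed signal minus its 75th percentile (4.65% of all genes) and 6 of 10 with 75th percentile scaling (4.27%). It was 9 of 10 with spike-in probes set equal (14.8%). Thbs1, thrombospondin, read 10.12 in EpiSC and 13.19 in ELA-EpiSC and so differed by 3.07. The matricellular proteins Ccn1 (Cyr61 on the array) and Ccn2 (Ctgf) differed by 2.18 and 1.62, osteopontin (Spp1) by 1.78, fibrillin Fbn1 by 1.46, Tgfb3 by 1.35 and fibronectin (Fn1) by 1.09, which was 0.92 with 75th percentile scaling. Several known ligands of Itgav receptors were thus higher in ELA-EpiSC, as was Itgb3 at its distal probe. Vitronectin (Vtn) was dim on both arrays, at 6.86 and 6.52.

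Among laminin ligands, 1 of 7 genes passed 1 and the median was 0.33. This was Lamb2, with 9.43 in EpiSC and 10.45 in ELA-EpiSC, which differed by 1.02. The chains of the embryonic basement membrane stayed under 1 in size and did not share a direction, with 0.46 for Lama5, 0.33 for Lamc1 and -0.84 for Lama1. In the hemidesmosome list, 2 of 4 genes passed 1. These were the plakins Plec (1.59), which binds the Itgb4 tail, and Dst (1.16, down to 0.72 at another probe). Krt14 (-0.47) and Cd151 (0.05 at its brighter probe) did not pass. Krt5 (-0.03) and Col17a1 were too dim to be counted, and Col17a1 was not well above background in ELA-EpiSC. Collagens split, with Col1a1 (3.72), Col5a1 (2.37) and Col6a1 (1.03, and 0.92 with 75th percentile scaling) past 1 of 8 genes and Col4a1, the network collagen of basement membranes, at -0.64. The median of the collagen list was -0.06 over these 8 genes. It was 0.08 with 75th percentile scaling, where 9 genes had a sufficient level. With the processed signal minus its 75th percentile it was -0.31 over 7 genes, so the set of genes changed as well.

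Markers of cell types were read on the same arrays, and several of them differed as well. All 6 epiblast markers (Pou5f1, Sox2, Nanog, Fgf5, Otx2 and Dnmt3b) were detected on both arrays and differed by -0.84 to 0.32. The lowest was Dnmt3b, which passed 1 downward with 75th percentile scaling (-1.19) and with the processed signal (-1.22), and read down to -1.11 at another probe. Of 9 visceral endoderm markers, 9 were detected in EpiSC and 7 in ELA-EpiSC, and 4 of 7 with a sufficient level were lower in ELA-EpiSC past 1, down to -5.12 for Hnf4a. Ttr (9.53 in EpiSC) and Apoa1 (8.12) were not well above background in ELA-EpiSC, where Apoa1 was at least 4.02-fold lower. Of 8 trophoblast markers 7 were detected on each array, and Gata3 (-2.56) and Elf5 (-1.48) were lower in ELA-EpiSC past 1. Of 10 fibroblast and mesenchyme markers 9 were detected on each array, and 3 of 8 (Col1a1, Pdgfra at 1.77 and S100a4 at 1.57) were higher in ELA-EpiSC past 1. All 6 mesoderm markers were detected on both arrays, with T (2.48) and Mixl1 (1.97) higher and Mesp1 (-1.66) lower in ELA-EpiSC past 1. Of 5 neural markers 3 had a sufficient level, and of these Nes (2.11) alone was past 1. Of 5 blood markers 3 had a sufficient level, and of these Gata1 (-3.71) alone was past 1 in size. Of 5 endothelial markers 4 were detected on each array, but only Kdr had a sufficient level to be counted. Kdr, also a mesoderm marker, read -0.43 at its brightest probe and 1.49 at its other probe. The part of such cells in the integrin values was not tested.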

How the data were processed

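RNA of E14Tg2A-derived EpiSC and ELA-EpiSC was measured on 1 one-colour Agilent array per group, with 50 ng of pooled RNA labelled per the labels. Groups followed the sample titles, although the source label of EpiSC speaks of an Argonaute IP. The deposited scanner files hold spot intensity, not normalized, with mm9 probe positions, produced with Feature Extraction 10.7.3.1 per the file headers (9.1 in the submitters' processing notes). The authors also deposited a log2 table per probe, made with limma, used here as an alternative; its background correction is not given in the sources used here. Both arrays were on 1 slide in 1 scan.

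Mean spot intensity was background-corrected with normexp (offset 50), stripped of control spots and outlier flags (158 and 117 spots), quantile normalized and taken as log2 with limma 3.58.1 in R 4.3.3. The offset compresses differences of dim probes, and quantile normalization hides a shift shared by all genes. Of 55681 probes, 65.9% in EpiSC and 65.0% in ELA-EpiSC were well above background, and no spot was saturated; 1 array per group limits the precision. A gene took its brightest probe detected on at least 1 array. A probe dim on 1 array was set against the higher of its own value and the lowest detected signal there, as a bound. Scripts were tested on simulated data. Exon and UTR annotation of mm9 was not used here.

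The members and lists were chosen with earlier results of these data known. Named were all members and probes, list genes past 1, and Tln1, Fermt1, Fermt2, Ilk, Ptk2, Vcl, Pxn, Fn1, Vtn, Npnt, Lama1, Lama5, Lamc1, Col4a1 and Spp1. Further integrin chains, list genes and markers were named after their values were seen. Alternatives varied the background correction, scaling, signal, probe summary, filters and thresholds. Some genes of the lists are not reported here and were left out of the list counts.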

Additional observations from a re-analysis of the deposited data

How the results depend on the processing

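No paired analysis was possible because 1 array per group leaves nothing to pair. The count of 4 subunits higher in ELA-EpiSC ranged from 3 to 6 over the other settings except the threshold of 2.5. At that threshold it was 1 of 9 (Itgb3), beside 0.402% of all genes counted. It was 3 of 8, without Itgb3, for the mean of all detected probes (4.19% of all genes) and for a minimum level of 9 (4.16%). With spike-in probes set equal it was 6 of 10, where Itgav and Itgb1 joined, beside 14.8% of all genes. The count higher in EpiSC was 0 throughout, beside a share of all genes from 0.649% at the threshold of 2.5 to 10.9% at 1.5-fold. The median difference of the 10 subunits was 0.73 with median scaling, 1.04 with spike-in probes set equal and 0.63 with the processed signal minus its 75th percentile, against 0.51. Median scaling moved the median of all genes to 0.15 and spike-in probes set equal to 0.54. Relative to these, the median of the subunits was 0.57 and 0.51. Higher against lower calls over all genes changed from 756 and 742 to 1114 and 516 with median scaling and to 2609 and 321 with spike-in probes set equal. Over 14 alternatives Itga3 ranged from 2.13 to 2.71, Itga8 from 1.86 to 2.44, Itgb4 from 1.41 to 1.97 and Itgb3 from 1.39 to 3.21. The sign changed for Itga1 (2 alternatives), Itga6 (1) and Itgb5 (2), and for no other subunit. The cause of these changes was not tested, apart from what each scaling adds to all genes alike.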
